A study of Homo sapiens with 9 samples.

Results

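OIP5-AS1, called Cyrano in the mouse and zebrafish, is a long noncoding RNA (lncRNA) transcribed from the plus strand of chromosome 15, and 37 of the 24037 QKI‐5 HITS‐CLIP peaks lay on it. The annotated gene runs over chr15:41576156-41614590 on hg19 (GENCODE release 44 placed on that build), and a peak counted as its own when it was on the gene's strand and its centre fell in that span. The gene was selected on measured values, because several of its peaks were among the tallest 1% of the list by height. Position and height are therefore given as a description, with no test. The peaks are numbered 1 to 37 here from the 5′ end of the gene.

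In HITS‐CLIP, ultraviolet light links proteins to bound RNA in living cells, an antibody then pulls down a single protein, and the attached RNA pieces are sequenced. The mesHMLE cells used are a mesenchymal line made from HMLE, an immortalised human mammary epithelial line, although the sample labels call the cell type breast cancer. They had been derived by prolonged treatment with TGF‐β1 and were then kept without it. For induction of EMT in HMLE cells, 2.5 ng/ml for at least 14 days is given. The crosslinking dose was 600 mJ/cm2. The 9 libraries comprised 7 from QKI‐5 immunoprecipitation and 2 from size‐matched input, all from these cells, with no untreated or QKI‐depleted group. The immunoprecipitates were cut from the gel at the size of the QKI monomer (3 libraries) or of the presumptive dimer (4 libraries, 1 made with SuperScript IV). All are numbered as technical replicates, and the authors pooled them before calling peaks. Each peak thus has a single height, no value has a spread between samples, and the read depth is unknown from the list. Intervals of shares are 95% Wilson intervals over peaks, those of odds ratios are 95% normal approximations on the log scale, and both cover counting error only.

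LncRNAs such as OIP5-AS1 are spliced and polyadenylated like messenger RNAs but have no known long reading frame. OIP5-AS1 is best known for a site of unusually extensive pairing to the microRNA miR-7, which leads to the degradation of that microRNA. QKI‐5 is the nuclear isoform of Quaking, a KH domain protein that regulates splicing and binds RNA at the motif ACUAAC, written ACTAAC in DNA letters.

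The annotation lists 72 transcripts of the gene, and 3 of them serve here to place the peaks. OIP5-AS1-201 has 4 exons and ends in a last exon of 8499 nt, which holds the extensive miR-7 site. OIP5-AS1-204 shares exons 1 and 2 with it but runs on past the end of its exon 3, so that exon 3 is 3145 nt long instead of 90 nt and is the last exon. The Ensembl canonical transcript, OIP5-AS1-259, has 6 exons and ends farther downstream. The 3055 nt after the 90-nt exon 3, at chr15:41578299-41581353, are called the exon 3 extension. They are exonic in OIP5-AS1-204 and intronic in both other transcripts. Of the 72 transcripts, 64 have the 90-nt exon 3, 1 has the whole 3145-nt exon and 8 have an exon that starts inside the extension.

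The sequences of peaks 7, 9 and 10 are printed first, because they are among the 7 peaks of the gene in the tallest 1%, and so that the presence or absence of the known motif can be seen. Each is the hg19 sequence of the RNA's strand, 5′ to 3′. Capitals mark ACTAAC where a peak holds it, and otherwise a hexamer that differs from it at 1 base. Peak 9 also holds such a hexamer, TCTAAC, left in lower case, and a sequence wholly in lower case holds neither.
Peak 7, chr15:41578995-41579081: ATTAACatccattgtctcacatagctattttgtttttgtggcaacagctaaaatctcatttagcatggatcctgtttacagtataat
Peak 9, chr15:41579152-41579225: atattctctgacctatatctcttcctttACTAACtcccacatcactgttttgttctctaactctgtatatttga
Peak 10, chr15:41579237-41579319: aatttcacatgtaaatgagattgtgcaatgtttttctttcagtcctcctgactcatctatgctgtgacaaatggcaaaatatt

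The height of a peak is the authors' whole-number value for the pooled libraries. The lowest height in the tallest 1% of the list was 229, which 243 peaks (1.01%) reached, and 7 of the 37 OIP5-AS1 peaks were among them. Since this chose the gene, nothing is read from that count. Peak 11 was the tallest, at 560, and ranked 58 in the list. Peak 17 reached 392 (rank 96) and peak 10 reached 388 (rank 98). Peaks 9, 7 and 12 had heights of 334, 291 and 268. All 7 lay in the exon 3 extension, within a stretch that begins at peak 7 and ends at peak 20. The lowest of the 7 was peak 20, at 239, and the tallest peak of the gene outside the tallest 1% was peak 5, at 210. Over all 37 peaks the height ranged from 11 to 560 with a median of 88, against a median of 23 over the whole list, in which the tallest peak reached 42903. In all, 30 of the 37 stood above the list's median. Their widths ranged from 15 to 190 nt with a median of 83 nt.

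**Figure D1:**
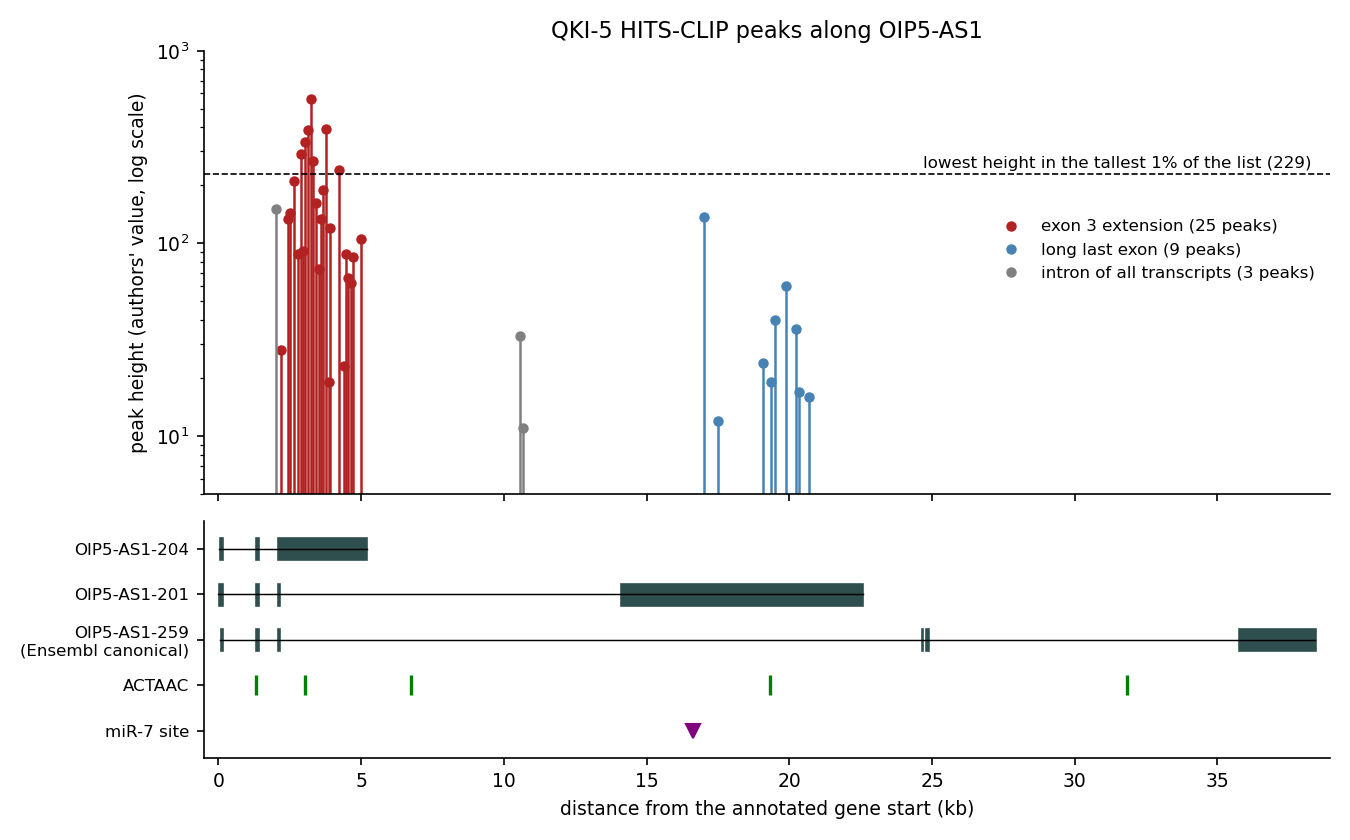
Height of each of the 37 OIP5-AS1 peaks (log scale, the authors' value) against distance from the annotated gene start in kb, coloured by part of the gene, above the exons of 3 transcripts, the 5 ACTAAC sites and the extensive miR-7 site. All peaks above the dashed line at 229 lie in the exon 3 extension, and the exons of the canonical transcript carry none.

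The peaks were unevenly spread along the gene. The exon 3 extension held 25 of them (peaks 2 to 26), with heights from 19 to 560 and a median of 133. Peaks covered 73.3% of its 3055 nt, and its summed height of 4293 was 88.6% of the 4848 summed over the gene. The last exon of OIP5-AS1-201, at chr15:41590239-41598737, held 9 peaks (29 to 37) with heights from 12 to 137 and a median of 24, and peaks covered 9.94% of its 8499 nt. The remaining 3 peaks were intronic in every annotated transcript. Exons 1 and 2 of OIP5-AS1-201 and the 90-nt exon 3 that 64 of the 72 transcripts share had 0 nt under a peak, and so had the 3231 nt of the canonical transcript's exons.

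By the centre, 34 of the 37 peaks (91.9%, interval 78.7 to 97.2%) lay in an exon of any OIP5-AS1 transcript. Of the nuclear peaks of the list, 20.7% lay in an exon of any gene on their strand. The list-wide share is not a baseline for this gene, in which exons of any transcript take up 22370 nt of the 38435-nt span. Many of the 34 are also neighbours in a single run, which the interval does not allow for. The share of OIP5-AS1 peaks in exons turned on the transcript chosen. It was 67.6% for the exons of OIP5-AS1-204, 24.3% for those of OIP5-AS1-201 and 0% for those of the canonical transcript. A peak over the extension can come from RNA that ends there as OIP5-AS1-204 does, or from the 8 transcripts with an exon that starts inside it. It can also come from the unspliced intron of longer transcripts, and the list cannot tell these apart. Counting OIP5-AS1-204 itself, 7 of the 72 annotated transcripts end within 30 nt of its end. All 37 peaks also lie inside a longer gene on the same strand that the annotation types as protein coding, ENSG00000285920, and none lies in an exon of it. Signal from that gene's introns cannot be told apart from OIP5-AS1 either.

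Within the extension the peaks formed a dense run over 2953 nt, with 2238 nt under peaks. It was broken by gaps of 158, 53, 218, 84 and 146 nt, before peaks 3, 18, 20, 21 and 26. Of the 24 gaps between neighbours, 19 were at most 11 nt, the median was 2.5 nt and the largest was 218 nt. The run began 4 nt after the 90-nt exon 3, with the low peak 2 (height 28), and its last peak ended 98 nt before the end of OIP5-AS1-204. Peaks 3 to 17, with gaps of at most 11 nt, joined into a single stretch of 1414 nt at chr15:41578563-41579976, which holds 6 of the 7 tallest. Within the run the tallest height was 29.5 times the lowest. The peak caller was run with its option to call summits, and neighbouring peaks lay as little as 1 nt apart. The number of peaks in this run is therefore not taken as a number of binding sites.

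**Figure D2:**
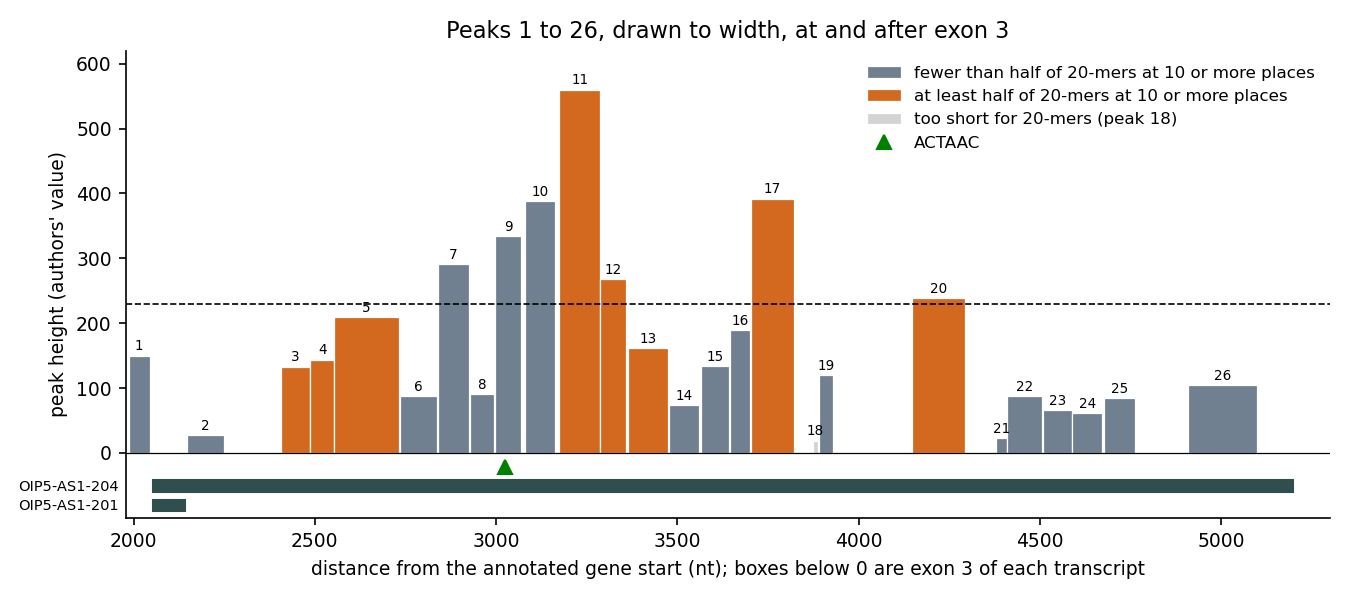
Peaks 1 to 26 drawn to their width against distance from the annotated gene start in nt, with height (the authors' value) as the vertical axis, colour for repeated sequence and exon 3 of OIP5-AS1-204 and OIP5-AS1-201 below. Bars rise to 560 at peak 11, the dashed line marks the lowest height in the tallest 1% (229), and the triangle marks the ACTAAC site in peak 9.

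Peak 1, with a height of 150, lay upstream of exon 3 and ended 9 nt before it, next to the 3′ splice site of intron 2. Its sequence is shown because it holds no ACTAAC but a pair of hexamers that differ from it at 1 base, in capitals.
Peak 1, chr15:41578143-41578199: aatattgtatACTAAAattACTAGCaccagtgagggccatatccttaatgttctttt
The other intronic peaks, 27 and 28, lay side by side at chr15:41586673-41586837 and were low, at 33 and 11. They are 5417 nt from peak 26 and belong to no exon.

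In the last exon of OIP5-AS1-201 peak 29 stood apart, with a height of 137. The next tallest peaks there were peak 34 at 60, peak 33 at 40 and peak 35 at 36. The other 5 had heights from 12 to 24, near or under the median of the list. The first 2901 nt of this exon, which hold the extensive miR-7 site, had no peak.

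The question of the QKI motif was asked of the sequence, which the choice of the gene did not use directly. It did use height, and taller peaks of the list held ACTAAC more often. Among other nuclear peaks the share was 18.6% in the tallest 10%, against 10.1% in all. Within the tallest 10%, 1 of 25 OIP5-AS1 peaks held it (odds ratio 0.268, 0.0514 to 1.40, Fisher's exact test, adjusted p = 0.137). The comparison with all peaks below is therefore not free of the choice. The letters ACTAAC were searched on the RNA's strand only. Of the nuclear peaks of the list 10.1% held ACTAAC, and of the OIP5-AS1 peaks 2 of 37 did (5.41%, interval 1.50 to 17.7%). Against the 2413 of 23982 other nuclear peaks the odds ratio was 0.629 (0.174 to 2.27), and Fisher's exact test (two‐sided) gave p = 0.58, adjusted p = 1 over 2 tests. The interval reaches from a share well under that of the list to one above it, so neither a lower nor an equal share was shown. The OIP5-AS1 peaks were also longer on average, with 3297 nt in 37 peaks against 1625058 nt in the 23982 others. A longer peak has more room for a motif, and the shares were not adjusted for length. With equally long windows 500 nt away as the comparison, ACTAAC was in 2 peaks but not their window and in 1 window but not its peak, on either side (exact McNemar test, two‐sided, p = 1). Because the peaks are dense, 27 of the upstream and 26 of the downstream windows touched another OIP5-AS1 peak, and with so few motifs this design could not have reached the threshold. The peaks share a single RNA and are not replicates.

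The heights of the peaks with the motif were far apart. In peak 9, height 334 and rank 129, ACTAAC began 9 nt before the summit. In peak 32, height 19, it began 13 nt before the summit. Peak 9 is in the extension and peak 32 in the last exon of OIP5-AS1-201. The sequence of peak 32 is shown for comparison with that of peak 9 above, with the motif in capitals.
Peak 32, chr15:41595479-41595535: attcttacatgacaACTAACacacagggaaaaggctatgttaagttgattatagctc
A hexamer within 1 base of ACTAAC (the motif itself included) was present in 13 of the 37 peaks, against 29.3% of nuclear peaks, again without adjustment for length. Of the 7 tallest, peaks 7 and 9 held such a hexamer, and peaks 10, 11, 12, 17 and 20 held none.

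The gene has 5 ACTAAC sites in its whole span, of which 2 lay in peaks and 3 had no peak. Peaks covered 8.58% of the span and 13.8% of the bases that are exonic in any transcript. With so few sites no test was made. Of the 3 sites without a peak, 1 is exonic, at chr15:41577456-41577461 in exon 2, which the 3 transcripts above share. It lies 682 nt from peak 1, the nearest peak. The site is shown with 30 nt to either side, as an ACTAAC in the spliced RNA on which no peak was called.
Exon 2 site, chr15:41577426-41577491: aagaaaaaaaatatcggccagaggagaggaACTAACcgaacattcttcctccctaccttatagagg
The other sites without a peak were intronic, 1657 and 11091 nt from the nearest peak. The related hexamer ACTAAT had 4 sites in the gene and was in 0 of its 37 peaks. Over the list 4.23% of nuclear peaks held it, and at so small a share 0 of 37 is not read as a lack. Whether the exon 2 site was covered by reads below the calling threshold is not known from a list of peaks.

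In base composition the OIP5-AS1 peaks were richer in A and T than the rest of the list. They held 27.2% A and 29.9% T, against 22.5% A and 26.0% T in the other nuclear peaks, and 20.3% C and 22.6% G, against 25.3% C and 26.2% G. Single OIP5-AS1 peaks ranged from 26.7% G and C together (peak 18) to 58.1% (peak 17). All lie at a single locus, and the composition of the gene outside its peaks was not compared.

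A share of the run lies in sequence that recurs in the genome, which matters for where short reads can be placed. For every peak the 20-mers were looked up in the genome on both strands, and a peak was called repeated when at least 50% of its 20-mers occurred at 10 or more places. Of the 36 OIP5-AS1 peaks long enough, 8 (22.2%) were repeated, against 16.9% of the nuclear peaks. These were peaks 3, 4, 5, 11, 12, 13, 17 and 20, all in the extension, and the median number of places of their 20-mers ranged from 262.5 (peak 12) to 11570 (peak 4). Their heights ran from 133 to 560 with a median of 224.5, and they made up 4 of the 7 tallest peaks. Of the 234 nuclear peaks in the tallest 1% that were long enough, 26.9% were repeated. The difference was not tested. The 16 peaks of the extension that were not repeated ran from 23 to 388 with a median of 89.5, and peaks 7, 9 and 10 of the tallest 1% were among them. Peak 18, 15 nt wide, was too short to be looked up.

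Reads of 30 nt would have been hard to place in several of these peaks. Every 30-mer occurred at 1 genome place in 20 of 36 OIP5-AS1 peaks (55.6%), against 79.6% of nuclear peaks. In the 8 repeated peaks the share of such 30-mers ranged from 0%, in peak 3, to 38.7%, in peak 20. Alignments of low mapping quality had been removed before peaks were called, and inserts were longer than 30 nt in part. The part of misplaced reads in the heights of the 8 peaks was not tested. Without them the gene kept 28 peaks long enough to be looked up, with a median height of 70, 3 in the tallest 1% and both ACTAAC peaks.

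The 8 repeated peaks held no ACTAAC. Over the whole list, 1.55% of repeated nuclear peaks held it, against 12.0% of those not repeated. Among peaks not repeated, OIP5-AS1 had ACTAAC in 2 of 28 (7.14%) and the other nuclear peaks in 2350 of 19633, an odds ratio of 0.694 (0.190 to 2.54, Fisher's exact test, adjusted p = 1).

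**Figure D3:**
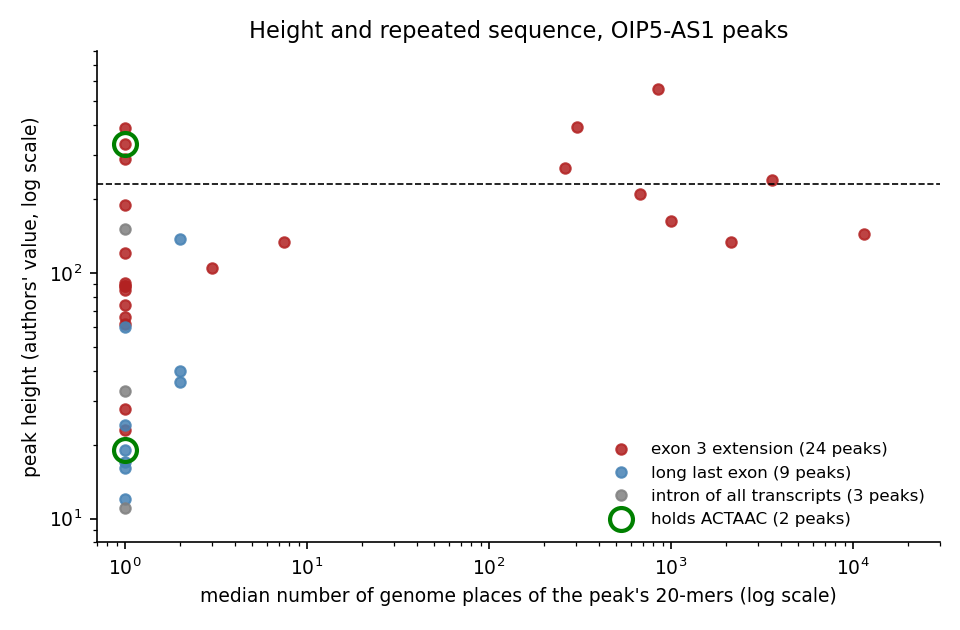
Height (the authors' value) against the median number of genome places of a peak's 20-mers, both on log scales, for the 36 OIP5-AS1 peaks long enough, coloured by part of the gene. The 8 repeated peaks lie at the right between heights of 133 and 560, the circled ACTAAC peaks (9 and 32) both lie at 1 place, and the dashed line is at 229.

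The miR-7 site was compared with the peaks because it is the best known element of this RNA. The RefSeq sequence of the mature microRNA is shown with its seed, bases 2 to 8, in capitals. The site in the gene follows with its paired bases in capitals, 14 nt that pair with the 3′ part of miR-7, 4 unpaired nt and the seed match.
hsa-miR-7-5p: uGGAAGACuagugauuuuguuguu
miR-7 site, chr15:41592772-41592797: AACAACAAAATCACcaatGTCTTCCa
No peak lay on this site, and the nearest, peak 29, began 344 nt downstream. The seed match GTCTTCC, searched on the RNA's strand, occurred 4 times in the gene, of which 3 were in the last exon of OIP5-AS1-201 and none of these in a peak. The remaining match lay in the intronic peak 27 and had at most 3 nt of further pairing. Over the list, 0.670% of nuclear peaks held GTCTTCC.

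The other genes tied to this circuit that were looked up had from 0 to 9 peaks. HNRNPK, whose intron holds a miR-7 gene, had 9 peaks, 1 of them in the tallest 1%, with a height of up to 280. ELAVL1, which encodes the RNA-binding protein HuR, a known partner of OIP5-AS1, had 5 peaks of at most 31. ZSWIM8, the ubiquitin ligase receptor of target-directed microRNA degradation, had 1 peak of 33. No peak lay on MIR7-2, MIR7-3HG or MIR671. CDR1-AS, the circular RNA that binds miR-7, was not analysed here.

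Among lncRNA genes OIP5-AS1 stood near the top of the list by both counts, which its selection favoured. Of 18702 annotated lncRNA genes 597 had a peak, with a median of 1, and 7 had more peaks than OIP5-AS1. Among the 5509 genes of any type with a peak, 59 had more peaks than OIP5-AS1. By peaks in the tallest 1%, NEAT1 (84 of 158) and MALAT1 (9 of 11) had more, and no other gene of any type did. NEAT1, the scaffold of paraspeckles, was covered by peaks over 76.7% of its span, against 8.58% of the span of OIP5-AS1 and 73.3% of its extension, and 5 of 158 (3.16%) held ACTAAC. Its median height was 255, against 88 over OIP5-AS1 and 133 in the extension. MALAT1, a nuclear speckle RNA, had 11 peaks with a median height of 1454, no ACTAAC, and 11.1% of its span covered.

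MIAT, a nuclear lncRNA known for repeated copies of the related UACUAAC, had a higher share of peaks with ACTAAC than OIP5-AS1 (5.41%). The difference was not tested. It had 48 peaks, 1 in the tallest 1%, with a median of 44, and 8 (16.7%) held ACTAAC. MIR924HG had 95 peaks and FTX 79, but nearly all were intronic, with medians of 24 and 26. Of the other compared genes, MIR100HG had 16 peaks, MEG3 14, LINC-PINT 12 and KCNQ1OT1 10, none in the tallest 1%. SNHG14 had 5, DANCR 2, and CYTOR and TUG1 1 each. NORAD, GAS5, HOTAIR and H19 had none. RNA abundance in the cells was not measured by the list, so these counts are not binding per molecule.

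**Figure D4:**
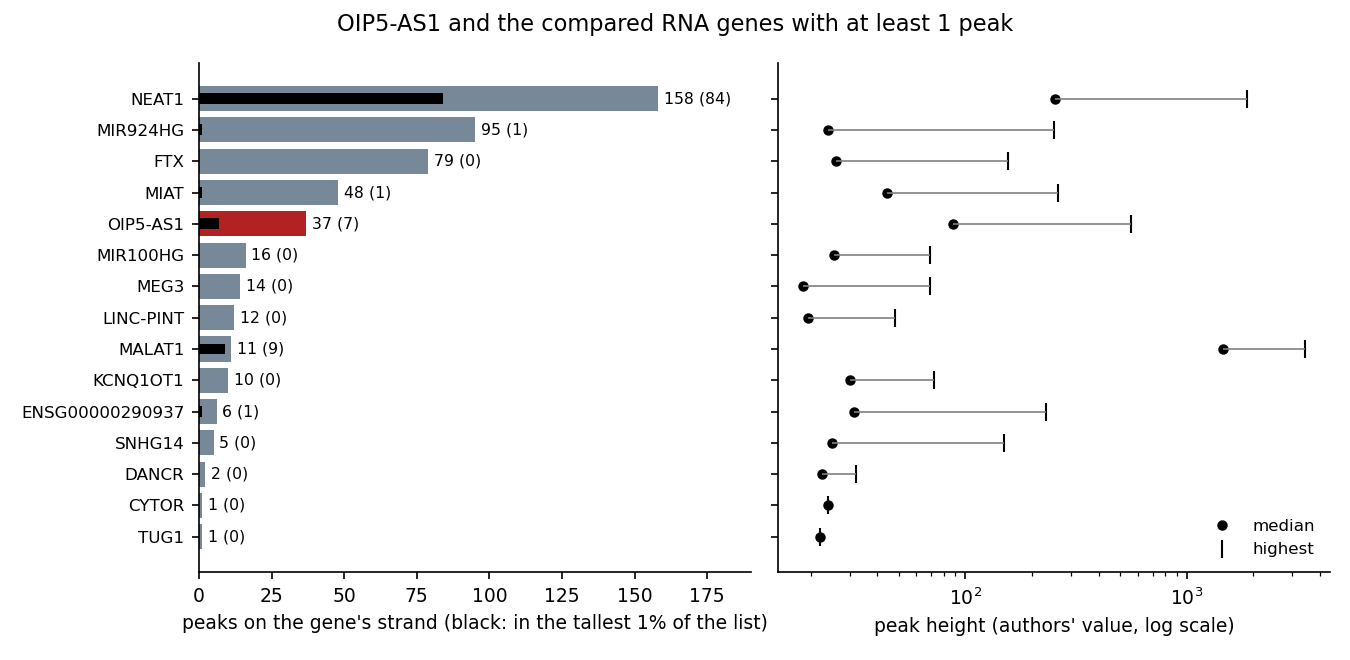
Left, the number of peaks on each compared gene with at least 1 peak, with the number in the tallest 1% in black and in parentheses; right, the median and highest peak height on a log scale. OIP5-AS1 (red) had 37 peaks with 7 in the tallest 1%, after NEAT1 with 84 and MALAT1 with 9; TUG1 is typed as protein coding in the annotation.

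Few peaks lay on the other strand or next to the gene. On the opposite strand within the span there were 2 peaks, of heights 33 and 19, the second in an intron of OIP5, the gene to which OIP5-AS1 is antisense in part. On the same strand the nearest upstream peaks were those of CHP1, at 249 and 149, which lie 3389 and 3046 nt before the span, and both were repeated. NUSAP1, downstream, had 7 peaks of at most 97.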

How the data were processed

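The 7 QKI‐5 immunoprecipitation and 2 size‐matched input libraries of mesHMLE cells were trimmed by the authors (cutadapt 1.3) and mapped to hg19 (TopHat2 2.0.10). They were freed of duplicates and of alignments with low mapping quality, and pooled. Peaks were then called on each strand against the input (MACS2 2.1.1.20160309, with its option to call summits). The deposited file is the resulting peak list, with coordinates, summit and height. The height is a signal, a whole number per peak written by the authors for the pooled libraries. It was used only to describe and rank peaks within the list, and the depth behind it is unknown.

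Positions were read with the first base counted as 1. Sequence came from GRCh37, gene models from GENCODE release 44 lifted to that build, and the microRNA from RefSeq (the GRCh38 table). The 18 mitochondrial peaks were left out of sequence work. The sequences of peaks 11, 12, 17 and 20 are not reported here. ACTAAC was compared with windows 500 nt away (exact McNemar test, larger p of both sides) and with all other nuclear peaks (Fisher's exact test, odds ratio after adding 0.5 to each cell), with Benjamini-Hochberg adjustment over these 2 tests. The copy numbers of 20-mers and 30-mers and the transcripts OIP5-AS1-201 and OIP5-AS1-204 were taken up after the peaks were seen. The gene, its peaks and the compared gene lists were chosen with earlier results of these data known. The compared genes were a list of 15 lncRNA genes, the 5 lncRNA genes other than OIP5-AS1 with most peaks in the tallest 1%, the genes around miR-7 and the neighbouring genes. Alternatives were other definitions of membership, exons, motif, flanks and merging. On simulated data the scripts found all of 400 planted motifs, and 12 of 200 comparisons without a difference had p under 0.05. The tools were numpy 2.4.6, scipy 1.17.1, pysam 0.24.0 and matplotlib 3.10.9 under Python 3.11.15.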

Additional observations from a re-analysis of the deposited data

How the results depend on the processing

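The 37 peaks were the same number by summit, by any overlap, after merging touching peaks and in the canonical transcript's span, and 31 of them reached the median height of the list. Joining peaks across gaps of at most 11 nt, an alternative added after seeing the data, left 17. At the tallest 5% of the list 21 OIP5-AS1 peaks were included instead of 7. The exonic share of 91.9% was 0% with the canonical transcript and, in alternatives added after seeing the data, 24.3% with OIP5-AS1-201 and 67.6% with OIP5-AS1-204. The odds ratio for ACTAAC against other peaks was above 1, not below, with gaps merged (1.13) and within the tallest 1% (1.10), both added after seeing the data. This came from adding 0.5 to each cell, since the shares were still lower in OIP5-AS1, 11.8% against 12.5% and 14.3% against 17.2%. Over its 8 alternatives it ranged from 0.268 to 1.13 with adjusted p from 0.137 to 1, the lowest within the tallest 10% (1 of 25 against 445 of 2395). No alternative of either motif test passed the threshold. For the test against flanking windows none could have, because too few peaks differed from their window in the motif, so this is no sign of stability. No paired analysis was possible because the immunoprecipitation and input libraries were pooled into a single list without replicate numbers, and for the same reason no library could be left out. Pooling and unknown depth limit every value: no height has an error, and an uncalled site is not an unbound one.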
